A study of Mus musculus with 12 samples.

Results

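The change between day and night was followed in pineal glands of Crx-/- mice, which lack the transcription factor Crx in every cell. The 3 arrays of Crx-/- glands collected in the night, at Zeitgeber time 20 (ZT20, hours after lights on), were compared with the 3 arrays of Crx-/- glands collected in the day, at ZT6. These are 6 of the 12 arrays of the series; the remaining 6 hold control glands (129sv) at the same times, and they enter only where the change is compared between genotypes. All 4 groups carry the strain label 129sv. Mice of both genders, older than 2 months, lived in 12 h of light and 12 h of darkness, were killed with CO2, and at ZT20 were handled under dim red light. RNA of 100 ng was amplified and hybridised to Affymetrix mouse expression arrays. The labels call each array a biological replicate of 3 in its group, and do not say which litter, day or batch a replicate number marks.

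The pineal gland makes melatonin in the night. Darkness is signalled to it by noradrenaline from sympathetic nerves, which raises cyclic AMP in the pinealocyte and switches on Aanat, the enzyme that sets the nightly rate of melatonin synthesis. Pinealocytes are relatives of retinal photoreceptors and express many of their genes, and Crx is a homeodomain activator of such genes in both tissues. The gland also runs the molecular clock, in which Bmal1 (Arntl) and Clock drive the Per, Cry, Rev-erb (Nr1d) and Dbp genes, whose products feed back on them.

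A log2 signal below is the log2 of the quantile-normalised signal plus 3.4, and a change is the ZT20 mean minus the ZT6 mean on that scale, given ± its standard error (n = 3 arrays against 3). A gene was called at an adjusted p under 0.05, from limma, corrected by Benjamini and Hochberg's method for the 12379 genes that were tested. Signals of different genes come from different probes, and their levels are not set against each other. The trimmed mean signal of the arrays as deposited was 502.9 to 698.3 at ZT20 and 552.6 to 681.6 at ZT6. The ratio of 5' to 3' signal, a measure of RNA integrity, was 0.197 to 0.282 at ZT20 and 0.169 to 0.219 at ZT6 for actin (exact two-sided permutation test, p = 0.6, where the smallest p possible is 0.1). Across genes, arrays of the same group correlated at 0.9789 to 0.9885 and arrays of different times at 0.9643 to 0.9785. All 14 pinealocyte markers listed were tested, and Tph1, Ddc, Neurod1 and Otx2 had log2 signals above 12 on each of the 6 arrays. Crx itself had log2 signals of 12.93, 13.03 and 13.06 at ZT20 and of 12.67, 12.87 and 12.56 at ZT6 in Crx-/- glands, close to those of control glands (13.02 to 13.27 at ZT20 and 12.66 to 12.75 at ZT6). The place of its probe set with respect to the deletion is not given in the sources used here, so its signal does not check the genotype labels.

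Some arrays stood apart. The array labelled Crx-/- ZT6 replicate 3 was high in genes of brain neurons: the kinase Camk2a had a log2 signal of 11.33 there, against 7.58 and 7.30 on the other ZT6 arrays and 7.16 to 7.86 at ZT20, and the GABA-synthesising enzyme Gad1 had 9.04, against 5.36 and 5.00, and 4.54 to 4.79 at ZT20. The summed signal of 11 such genes was 10475.5 to 10934 on the ZT20 arrays, and 9010, 8893.8 and 14608.2 on ZT6 replicates 1 to 3. The same array had the lowest signal of Xist, the RNA of the inactive X chromosome (8.38, against 12.25 to 12.79 on the other 5 arrays), and ZT6 replicate 1 had the lowest signals of Y-linked genes (5.29 for Eif2s3y, against 11.52 to 12.24). The other 4 Crx-/- arrays, and all 6 control arrays, carried both kinds of transcript, which the RNA of 1 male or 1 female gland does not normally do. The labels describe each sample as from a mouse, and whether glands were pooled is not given in the sources used here. Among control arrays, the one labelled control ZT20 replicate 3 correlated at 0.968 to 0.989 with the Crx-/- arrays and at 0.915 to 0.925 with the other arrays of its own group. Comparisons between genotypes are therefore given with and without that array.

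Of the 12379 genes, 411 (3.32%) were called: 201 (1.62%) were higher at ZT20 and 210 (1.7%) were lower, with 80 higher and 74 lower by at least 1 on the log2 scale. The ZT20 and ZT6 arrays of all 411 did not overlap; among all genes tested, 990 (8%) lay without overlap higher at ZT20 and 1738 (14%) lower. The median change over all genes was -0.04, and 42.2% of genes had a positive one. With any of the 6 arrays left out, the number called was 98 to 188 higher and 106 to 184 lower. The direction of the 411 genes could not turn in those fits, since their ZT20 and ZT6 arrays do not overlap. The replicate number as a block raised the calls to 280 higher and 300 lower. Whether that number pairs the arrays was not tested.

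**Figure D1:**
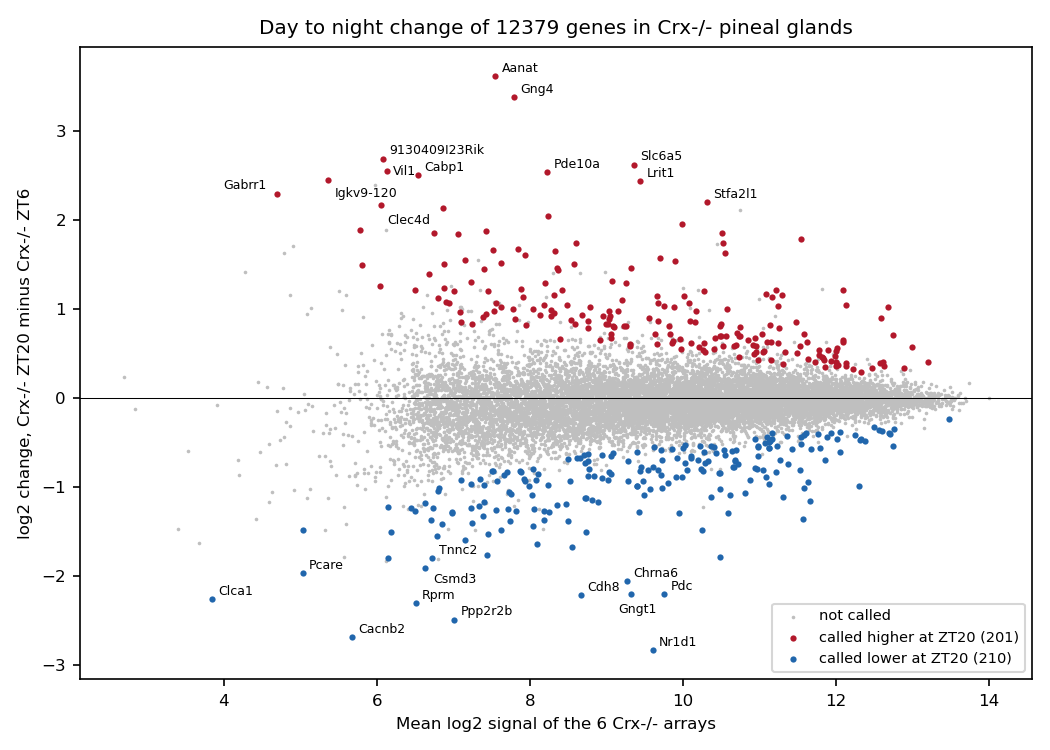
Each point is 1 of 12379 genes, with its mean log2 signal over the 6 Crx-/- arrays on the x axis and its log2 change, Crx-/- ZT20 minus Crx-/- ZT6, on the y axis. Red points are the 201 genes called higher and blue points the 210 called lower (limma, adjusted p under 0.05). The 12 largest called changes in each direction are named, from Aanat at 3.63 to Nr1d1 at -2.83.

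Aanat showed the largest rise of the 201. Its log2 signal was 9.52, 9.16 and 9.40 on the ZT20 arrays and 6.47, 5.24 and 5.50 on the ZT6 arrays. Every ZT20 array lay above every ZT6 array. The change was 3.63 ± 0.29, or 12.3-fold (limma, adjusted p = 5.71e-05), and it stayed between 3.38 and 3.99 when any array was left out. Neither of the main enzymes upstream passed. Tph1, which makes 5-hydroxytryptophan from tryptophan, had 13.04, 13.10 and 13.05 at ZT20 and 13.13, 13.12 and 13.01 at ZT6 (change -0.02 ± 0.06), and Ddc, which makes serotonin, changed by 0.18 ± 0.06 (adjusted p = 0.140). Gch1, which starts the synthesis of the cofactor tetrahydrobiopterin that Tph1 needs, fell by 0.47 on the log2 scale (adjusted p = 0.0412), with 11.83, 12.12 and 12.28 at ZT20 and 12.49, 12.46 and 12.69 at ZT6. The remaining genes of the list for melatonin and tetrahydrobiopterin did not pass, so that 1 of 11 rose and 1 fell. The share called was 18.2%, against 3.32% of all genes. The call of Gch1 held in 1 of the 6 fits with an array left out.

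Next in size was Gng4, a gamma subunit of heterotrimeric G proteins, with 9.59, 9.97 and 8.90 at ZT20 and 6.17, 5.40 and 6.73 at ZT6, a rise of 3.39 ± 0.33 (10.5-fold, limma, adjusted p = 0.000249), and its other kept probe set rose alike, by 3.62. Slc6a5, the neuronal glycine transporter GlyT2, had 10.91, 11.02 and 10.10 at ZT20 and 8.17, 8.0 and 7.97 at ZT6 (2.63 ± 0.21, adjusted p = 6.58e-05). The night arrays of both genes all lay above the day arrays. Pde10a, a phosphodiesterase that degrades cyclic AMP and cyclic GMP, had 9.78, 9.77 and 8.94 at ZT20 and 6.67, 6.91 and 7.28 at ZT6 (2.54 ± 0.24, adjusted p = 0.000213). Cabp1, a calmodulin-like regulator of calcium channels, had 8.07, 7.72 and 7.61 at ZT20 and 5.58, 4.71 and 5.58 at ZT6 (2.51 ± 0.29, adjusted p = 0.000724). Vil1, the actin-bundling protein villin, had 7.68, 7.61 and 6.95 at ZT20 and 5.30, 4.49 and 4.77 at ZT6 (2.56 ± 0.31, adjusted p = 0.00105). For these 3 genes, too, the night arrays stood clear of the day arrays.

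Gabrr1, the rho1 subunit of retinal GABA receptors, was measurable at night only. Its log2 signal was 5.54, 6.72 and 5.28 at ZT20 and 3.62, 3.58 and 3.43 at ZT6, and the ZT6 signals were not above the background of any array, which was taken as the brightest of 27 bacterial control probe sets. With that background in their place, the night level was at least 3.24-fold higher (limma, adjusted p = 0.0191 for the measured change of 2.30 ± 0.46). The call held in 3 of 6 fits with an array left out. The RNA 9130409I23Rik (2.69 ± 0.32) was above background on 2 of 3 ZT6 arrays and all ZT20 arrays.

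A further 3 of the 12 largest called rises were in genes known from blood and immune cells. Stfa2l1, a stefin inhibitor of cysteine proteases, had 11.52, 11.34 and 11.38 at ZT20 and 8.67, 8.64 and 10.32 at ZT6 (2.20 ± 0.35, adjusted p = 0.00517), with ZT6 replicate 3 nearest to the night arrays. The myeloid lectin Clec4d had 7.31, 7.36 and 6.76 at ZT20 and 5.04, 5.29 and 4.59 at ZT6 (2.17 ± 0.30, adjusted p = 0.00226). A segment of the immunoglobulin kappa variable genes had 7.20, 7.38 and 5.20 at ZT20 and 4.16, 3.92 and 4.33 at ZT6, was above background on 1 ZT6 array, and stayed called in 2 of 6 fits with an array left out. Granulocyte genes that were looked at after these values were seen had a spread within the day group as wide as the change. S100a8, a calcium-binding protein of neutrophils, had 10.54, 10.67 and 10.65 at ZT20 and 10.53, 7.90 and 9.72 at ZT6 (1.24 ± 0.48, adjusted p = 0.218), and Ngp, the neutrophil granule protein, had 7.68, 8.09 and 8.10 at ZT20 and 8.02, 5.21 and 7.0 at ZT6 (adjusted p = 0.273). In both, ZT6 replicate 2 was the low array and ZT6 replicate 1 lay at the level of the night. The part of blood cells in the called rises was not tested.

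**Figure D2:**
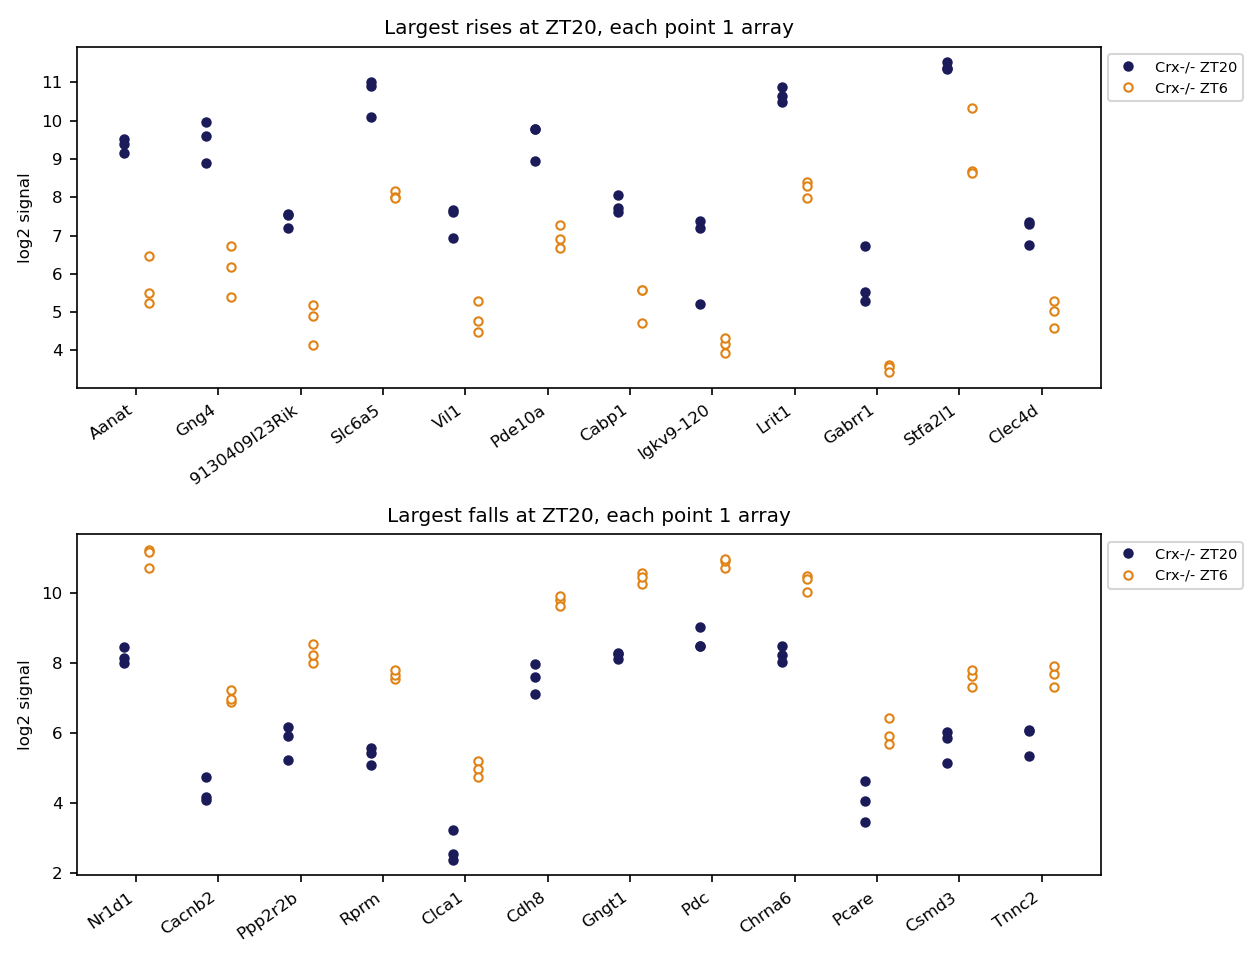
Log2 signal of the 12 called genes with the largest rises (top) and the 12 with the largest falls (bottom) at ZT20. Filled points are the 3 Crx-/- ZT20 arrays and open points the 3 Crx-/- ZT6 arrays. The points of the 2 times do not overlap for any gene shown, and the lowest signals are those of Clca1 at ZT20, 2.39 to 3.22.

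Nr1d1, which encodes the nuclear receptor and repressor Rev-erb alpha, showed the largest fall. Its log2 signal was 8.13, 8.44 and 8.0 at ZT20 and 11.22, 11.15 and 10.70 at ZT6. The change was -2.83 ± 0.17 (limma, adjusted p = 2.24e-05), a level 7.13-fold lower at night. Ppp2r2b, a regulatory subunit of protein phosphatase 2A, had 5.24, 6.16 and 5.90 at ZT20 and 8.0, 8.53 and 8.23 at ZT6 (-2.49 ± 0.27, adjusted p = 0.000459). Rprm, a cell cycle regulator induced by p53, had 5.56, 5.43 and 5.09 at ZT20 and 7.55, 7.65 and 7.80 at ZT6 (-2.30 ± 0.23, adjusted p = 0.000307). In each of these genes all night arrays lay below all day arrays. The classical cadherin Cdh8 had 7.10, 7.60 and 7.97 at ZT20 and 9.80, 9.62 and 9.89 at ZT6 (-2.21 ± 0.21), and its other kept probe sets changed by -1.61 and -1.76. The nicotinic receptor subunit Chrna6 had 8.02, 8.22 and 8.48 at ZT20 and 10.49, 10.38 and 10.03 at ZT6 (-2.06 ± 0.17, adjusted p = 6.58e-05), and -1.79 on its other probe set. Tnnc2, the troponin C of fast skeletal muscle, had 5.33, 6.08 and 6.06 at ZT20 and 7.67, 7.89 and 7.31 at ZT6. It was the 1 gene of 10 muscle markers bright enough to be tested. Clca1, a secreted regulator of chloride channels, was not above background on any ZT20 array, so its level was at least 1.82-fold lower (adjusted p = 0.0390), and it was not called in any fit with an array left out.

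Of 22 clock genes, 4 rose and 3 fell (31.8% called, against 3.32% of all genes), with a median change of 0.02. Nr1d1 was joined by Dbp, an activator of D-box genes, which had 11.39, 11.09 and 10.76 at ZT20 and 12.36, 12.13 and 12.20 at ZT6 (-1.15 ± 0.14, limma, adjusted p = 0.00106), and by Nr1d2, Rev-erb beta, with 12.07, 12.21 and 12.15 at ZT20 and 12.61, 12.63 and 12.63 at ZT6 (-0.48 ± 0.07, adjusted p = 0.00286). The repressor Cry1 moved the other way, with 11.43, 11.39 and 11.29 at ZT20 and 9.62, 9.66 and 9.93 at ZT6, a rise of 1.63 ± 0.12 (adjusted p = 4.24e-05). Its partner Per2 had 9.45, 9.61 and 9.42 at ZT20 and 8.60, 8.98 and 8.51 at ZT6 (0.80 ± 0.16, adjusted p = 0.0180). The D-box repressor Nfil3 had 10.22, 10.08 and 10.19 at ZT20 and 9.69, 9.38 and 9.55 at ZT6 (0.62 ± 0.13, adjusted p = 0.0238), and the D-box activator Hlf rose by 0.47 ± 0.11 (adjusted p = 0.0429). Cry1, Nr1d1, Nr1d2 and Dbp stayed called whichever array was left out. Per2 did so in 3 of 6 such fits, Nfil3 in 1 and Hlf in 0, and without ZT6 replicate 3 there were 1 higher and 4 lower clock genes.

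Other core clock genes did not pass. Per1 had 8.32, 8.51 and 7.94 at ZT20 and 8.35, 8.17 and 8.17 at ZT6 (0.03 ± 0.18), Per3 changed by -0.13 ± 0.11 and Cry2 by -0.03 ± 0.12. The activator Arntl had 10.24, 9.95 and 10.11 at ZT20 and 9.80, 9.68 and 9.61 at ZT6, so its night arrays all lay above its day arrays, but the change of 0.40 ± 0.13 did not pass (adjusted p = 0.130). Its partner Clock changed by 0.20 ± 0.12. The probe sets of Per3 disagreed: its other kept ones changed by 0.25 and -0.61.

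**Figure D3:**
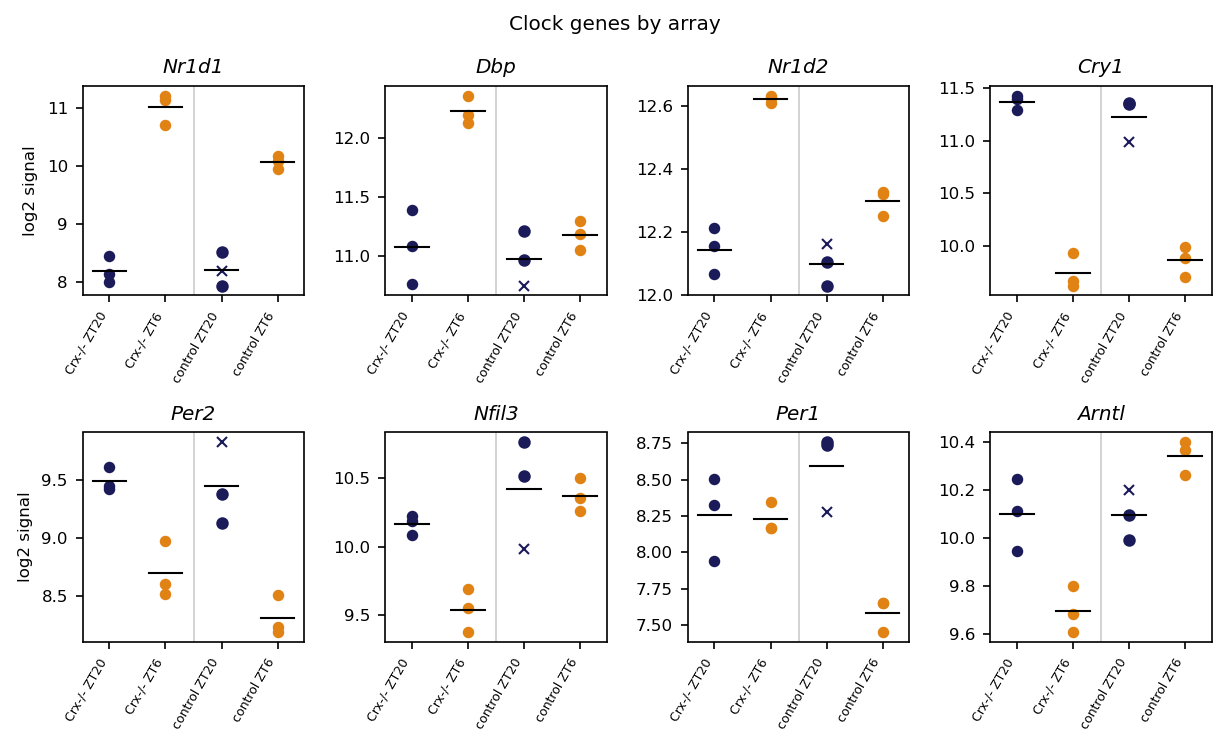
Log2 signal of 8 clock genes on each array, by group; horizontal bars are group means of 3 arrays, and the cross is the array labelled control ZT20 replicate 3. In Crx-/- glands Nr1d1, Dbp and Nr1d2 were lower and Cry1, Per2 and Nfil3 higher at ZT20, while the Per1 signals of the times overlap.

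The promoters of Cry1, which rose, and of Per1, which did not pass, are shown because both windows hold matches to motifs of clock and cyclic AMP factors. They are the RefSeq windows (assembly GRCm38.p6) of 250 bases before to 50 bases after the start of transcription, at chr10:85185005-85185304 on the minus strand for Cry1, and at chr11:69098699-69098998 on the plus strand for Per1, where the window with more matches of its 2 is given. Capitals mark matches, on either strand, to 5 short motifs: the CRE core bound by CREB (TGACG), the E-box of Clock and Arntl (CACGTG), the ROR and Rev-erb motif (AGGTCA), the Crx and Otx core (TAATCC) and the D-box (TTATGNAA).
Cry1: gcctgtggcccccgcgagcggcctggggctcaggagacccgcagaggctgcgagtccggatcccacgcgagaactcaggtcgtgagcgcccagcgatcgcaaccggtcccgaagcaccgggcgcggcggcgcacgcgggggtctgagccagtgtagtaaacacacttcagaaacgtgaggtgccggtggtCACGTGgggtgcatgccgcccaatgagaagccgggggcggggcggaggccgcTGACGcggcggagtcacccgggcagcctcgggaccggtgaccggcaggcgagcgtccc
Per1: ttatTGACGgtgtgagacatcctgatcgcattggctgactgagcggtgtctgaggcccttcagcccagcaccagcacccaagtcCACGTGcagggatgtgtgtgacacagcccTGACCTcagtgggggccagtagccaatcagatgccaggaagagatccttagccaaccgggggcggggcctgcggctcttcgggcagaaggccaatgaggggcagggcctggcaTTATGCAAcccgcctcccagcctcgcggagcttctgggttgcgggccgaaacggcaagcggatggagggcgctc
Counted from the start of transcription to the first base of the match, with -1 just before the start, the Cry1 window held an E-box at -60 and a CRE core at -8. The Per1 window held a CRE core at -246, an E-box at -166, a Rev-erb motif on the other strand at -137 and a D-box at -24. A match is a string of letters and not a shown binding site.

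Of 26 genes known to be induced by cyclic AMP, 6 rose and 1 fell (26.9% called, against 3.32% of all genes, of which 1.62% were higher and 1.7% lower), with a median change of 0.23. After Pde10a, the AP-1 factor Fosl2 had 11.77, 11.89 and 11.62 at ZT20 and 10.81, 10.53 and 10.81 at ZT6 (1.04 ± 0.11, limma, adjusted p = 0.000553). The phosphodiesterase Pde4b had 10.99, 11.13 and 11.11 at ZT20 and 10.26, 9.85 and 10.11 at ZT6 (1.01 ± 0.13, adjusted p = 0.00132), and Pde4d rose by 0.74 ± 0.12 (adjusted p = 0.00646). Both enzymes degrade cyclic AMP. Crem, whose product ICER represses cyclic AMP targets, had 9.51, 9.73 and 9.29 at ZT20 and 8.71, 8.62 and 8.44 at ZT6 (0.92 ± 0.16, adjusted p = 0.00705), and the orphan receptor Nr4a2 rose by 0.62 ± 0.14 (adjusted p = 0.0397). The 5 genes other than Nr4a2 stayed called whichever array was left out, and Nr4a2 in 1 of 6 such fits.

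Among the members that did not pass, the AP-1 factor Fos had 9.65, 9.88 and 9.35 at ZT20 and 9.98, 9.81 and 9.23 at ZT6 (-0.04 ± 0.20), Jun changed by -0.02 and Egr1 by -0.15, with adjusted p values above 0.5. Nr4a1 had 7.58, 7.52 and 6.57 at ZT20 and 6.84, 7.03 and 6.63 at ZT6 (0.39 ± 0.28), and its groups overlapped. The phosphatase Dusp4, which switches off MAP kinases, fell (5.75, 5.51 and 5.32 at ZT20, 6.76, 7.18 and 6.33 at ZT6; -1.23 ± 0.29, adjusted p = 0.0432), and that call held in 1 of 6 fits with an array left out. Dio2, the deiodinase that makes active thyroid hormone, had 8.98, 8.60 and 8.58 at ZT20 and 8.25, 8.21 and 9.0 at ZT6. ZT6 replicate 3 was above the night arrays, and the change of 0.23 ± 0.22 did not pass (adjusted p = 0.644).

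Upstream of these targets, 1 of 23 genes of adrenergic and cyclic AMP signalling rose and 2 fell. The adenylyl cyclase Adcy1, which calcium and calmodulin activate, had 6.70, 6.87 and 6.50 at ZT20 and 8.15, 8.19 and 8.31 at ZT6 (-1.52 ± 0.18, limma, adjusted p = 0.00105). Another cyclase, Adcy2, fell by 0.73 on the log2 scale (adjusted p = 0.0137), and the phosphodiesterase Pde8a rose by 0.68 ± 0.13 (adjusted p = 0.0166). No subunit of protein kinase A in the list passed. Among 8 thyroid hormone genes the nuclear receptor Rxrg (-0.81 ± 0.12, adjusted p = 0.00455) and the corepressor Hr (-0.87 ± 0.19, adjusted p = 0.0300) fell. They made up 25.0% of that list. With an array left out Adcy1 and Rxrg stayed called in all 6 fits, Pde8a in 4, Adcy2 in 3 and Hr in 1.

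Of 21 phototransduction genes, 7 fell and the other 14 did not pass (33.3% called, against 3.32% of all genes and 1.7% called lower), and the median change was -0.39. A further 11 genes of the list did not reach the signal or annotation needed for a test. Pdc, phosducin, which binds the beta and gamma subunits of transducin, had 8.47, 9.01 and 8.48 at ZT20 and 10.69, 10.91 and 10.95 at ZT6 (-2.20 ± 0.16, limma, adjusted p = 4.24e-05). Gngt1, the gamma subunit of rod transducin, had 8.11, 8.24 and 8.29 at ZT20 and 10.24, 10.56 and 10.46 at ZT6 (-2.21 ± 0.14, adjusted p = 2.24e-05), and its other kept probe sets changed by -2.68 and -2.31. Night arrays of both genes all lay below the day arrays. The subunits of the cyclic nucleotide-gated channel of cones and rods followed: Cngb3 had 9.13, 9.36 and 9.42 at ZT20 and 10.64, 10.62 and 10.54 at ZT6 (-1.29 ± 0.13, adjusted p = 0.000222), and Cngb1 had 6.78, 6.74 and 7.27 at ZT20 and 8.32, 8.18 and 8.05 at ZT6 (-1.26 ± 0.20, adjusted p = 0.00533). Rgs9bp, the anchor of the transducin-inactivating complex, changed by -1.09 ± 0.14, the rod phosphodiesterase subunit Pde6b by -0.94 ± 0.12, and Guca1a, the calcium sensor of guanylyl cyclase, by -0.85 ± 0.14, with adjusted p values of 0.00130, 0.00118 and 0.00573. All 7 stayed called whichever array was left out. Arrestin (Sag, -0.34, adjusted p = 0.0663) and the cone phosphodiesterase Pde6c (-0.28) did not pass, and neither did the transducin subunits Gnat1 and Gnat2 (0.20 and 0.06).

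Of 20 genes of photoreceptor structure and the retinoid cycle, 6 fell and 1 rose (35% called, against 3.32% of all genes), with a median change of -0.23. Unc119, a carrier of lipid-modified transducin, had 11.04, 11.02 and 11.17 at ZT20 and 12.12, 12.21 and 11.92 at ZT6 (-1.0 ± 0.10, limma, adjusted p = 0.000249). The polarity protein Crb1 (-0.81 ± 0.16), the scaffold Mpp4 (-0.80 ± 0.15), the matrix proteoglycan Impg1 (-0.81 ± 0.19), the axonemal Rp1l1 (-0.70 ± 0.11) and the retinoid carrier Rbp3 (-0.24 ± 0.05) also fell. The disc rim protein Rom1 rose, with 11.19, 11.27 and 11.45 at ZT20 and 10.76, 10.83 and 10.76 at ZT6 (0.52 ± 0.10, adjusted p = 0.0195). Depending on the array left out, 2 to 4 of the 20 were lower and 0 or 1 higher, and Unc119 and Rp1l1 were the members called in all 6 fits, Mpp4 in 3, Crb1 in 2, Rom1 and Rbp3 in 1 and Impg1 in 0. Outside the lists, Pcare, an actin regulator of the photoreceptor cilium, had 3.47, 4.63 and 4.06 at ZT20 and 5.92, 6.43 and 5.69 at ZT6 (-1.96 ± 0.41, adjusted p = 0.0250), and 1 of its ZT20 arrays was not above background, so that its level was at least 3.12-fold lower. Crx (0.31 ± 0.08, adjusted p = 0.0656) and Otx2 (-0.05 ± 0.07), the homeodomain factors of these genes, did not pass, though the dimmer probe set of Crx changed by 0.63. Of 20 transcription factors of the pineal gland and retina, Isl2 (-0.86 ± 0.18, adjusted p = 0.0281) and Neurod1 (-0.34 ± 0.06, adjusted p = 0.0144) fell, calls that held in 1 and 3 of 6 fits with an array left out.

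Lrit1, an adhesion protein of the photoreceptor synapse, moved against these lists. It had 10.48, 10.65 and 10.87 at ZT20 and 8.39, 7.99 and 8.29 at ZT6, a rise of 2.44 ± 0.16 (5.44-fold, limma, adjusted p = 2.24e-05). Among 21 genes of the ribbon synapse, Lrit1 and the complexin Cplx4 (0.47 ± 0.07, adjusted p = 0.00501) rose and 5 fell. So 33.3% of the list was called, against 3.32% of all genes. Cacnb2, the beta subunit of the synaptic calcium channel, had 4.10, 4.73 and 4.17 at ZT20 and 6.88, 7.21 and 6.95 at ZT6 (-2.68 ± 0.30, adjusted p = 0.000711), and only 2 of the ZT20 arrays were above background, so that its level was at least 5.93-fold lower. Its pore-forming partner Cacna1f had 8.29, 8.19 and 8.44 at ZT20 and 9.75, 9.44 and 9.22 at ZT6 (-1.16 ± 0.17, adjusted p = 0.00289). The vesicle protein Sv2b had 10.48, 10.81 and 10.97 at ZT20 and 11.72, 11.89 and 11.98 at ZT6 (-1.11 ± 0.13, adjusted p = 0.000897). The calcium sensor Syt1 (-1.01 ± 0.19) and the glutamate transporter Slc17a7 (-0.99 ± 0.21) fell as well, and both were highest on ZT6 replicate 3, the array with high brain neuron genes, whose part in these falls was not tested. Without it Syt1 changed by -0.82 (adjusted p = 0.0383) and Slc17a7 by -0.83, which did not pass (adjusted p = 0.0888).

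The promoters of Lrit1, which rose, and Gngt1, which fell, are shown because each holds 1 match to the Crx and Otx core, TAATCC, marked by capitals. They are RefSeq windows of GRCm38.p6 at chr14:37054580-37054879 and chr6:3993758-3994057, both on the plus strand.
Lrit1: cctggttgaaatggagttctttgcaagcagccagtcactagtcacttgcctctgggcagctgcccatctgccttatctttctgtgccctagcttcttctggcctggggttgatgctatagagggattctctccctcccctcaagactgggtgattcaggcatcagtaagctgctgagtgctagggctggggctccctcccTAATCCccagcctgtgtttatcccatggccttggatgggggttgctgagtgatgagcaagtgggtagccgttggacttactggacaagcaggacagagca
Gngt1: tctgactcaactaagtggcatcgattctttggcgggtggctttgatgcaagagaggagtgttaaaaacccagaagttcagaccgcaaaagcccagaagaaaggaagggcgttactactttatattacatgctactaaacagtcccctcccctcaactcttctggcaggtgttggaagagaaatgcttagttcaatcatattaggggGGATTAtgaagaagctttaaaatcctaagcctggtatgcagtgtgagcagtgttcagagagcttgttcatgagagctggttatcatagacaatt
The match begins 50 bases before the start of transcription in Lrit1 and lies 44 bases before it on the opposite strand in Gngt1. Among all 32851 RefSeq windows of this length 7.06% held the core, and among those of tested genes 5.94%. The share was 6.02% of the windows of genes called higher at ZT20 and 10.1% of those of genes called lower. The CRE core was in 32.9% of windows of genes called higher and 26.0% of those of genes called lower, against 30.0% of those of tested genes. For the E-box the shares were 4.17%, 9.69% and 9.6% in the same order, for the Rev-erb motif 13.4%, 13.7% and 12.5%, and for the D-box 0.926%, 4.41% and 1.92%. A window was at hand for 9987 of the tested genes. These shares carry no test.

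Of 14 voltage-gated calcium channel genes 4 fell (28.6% called, against 3.32% of all genes). Besides Cacnb2 and Cacna1f, which the synapse list holds too, these were Cacna1e (-1.07 ± 0.25, limma, adjusted p = 0.0388) and Cacna2d3 (-0.69 ± 0.14, adjusted p = 0.0183). Cacna1e was highest on ZT6 replicate 3 (8.86, against 8.10 and 7.92), and without that array it changed by -0.79 and did not pass (adjusted p = 0.0823). Of 16 potassium channel genes Kcnc1, a channel of fast-spiking cells, rose, with 9.18, 9.0 and 8.84 at ZT20 and 7.82, 7.71 and 8.35 at ZT6 (1.05 ± 0.19, adjusted p = 0.0120). Kcnc1 stayed called in 3 of 6 fits with an array left out, Cacna2d3 in 2 and Cacna1e in 1. Gabrr1 was the 1 gene called among 20 transmitter receptor genes (5.0%), and Kcnc1 the 1 called among the 16 potassium channel genes (6.25%).

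Among lists of metabolism and stress, 6.67% to 16.7% of members were called where any were, apart from 4.55% for chaperones, against 3.32% of all genes. Odc1, the first enzyme of polyamine synthesis, had 13.05, 13.10 and 12.97 at ZT20 and 12.04, 12.22 and 12.14 at ZT6 (0.91 ± 0.07, limma, adjusted p = 5.24e-05), and was the 1 gene called of 7 for methyl donors and polyamines. Of 17 cholesterol genes, the sterol carrier Stard4 (1.17 ± 0.10, adjusted p = 0.000108) and the mevalonate kinase Mvk (0.93 ± 0.20, adjusted p = 0.0289) rose. Stard4 had 11.71, 11.69 and 11.63 at ZT20 and 10.64, 10.45 and 10.42 at ZT6. Of the 17 genes 16 had a positive change and the median was 0.18. Over all genes tested, 42.2% had a positive change and the median was -0.04. Among 22 chaperone genes of the endoplasmic reticulum Sdf2l1 rose (0.87 ± 0.18, adjusted p = 0.0223), 18 had a positive change and the median was 0.14. The small heat shock protein Hspb1 rose (0.80 ± 0.17) and the cold-inducible RNA-binding protein Cirbp fell (-0.46 ± 0.09) in a list of 14. Among 15 genes known to respond to glucocorticoids, Lcn2, an iron-binding protein of neutrophils and reactive astrocytes, rose (1.21 ± 0.29, adjusted p = 0.0467), a call that held in 1 of 6 fits with an array left out. The same held for Mvk, while Hspb1 and Cirbp stayed called in 2 such fits each, Sdf2l1 in 3, and Odc1 and Stard4 in all 6. Glycolysis gave 1 higher (Eno2, 0.30) and 2 lower (Pfkm, -0.53, and Hk1, -0.38) of 18, and with an array left out these calls held in 0, 1 and 3 of 6 fits in that order. Limma called 0 of 28 oxidative phosphorylation genes (changes of -0.34 to 0.14) and 0 of 22 interferon genes (changes of -0.46 to 0.41), where 5 and 1 had an unadjusted p under 0.05.

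**Figure D4:**
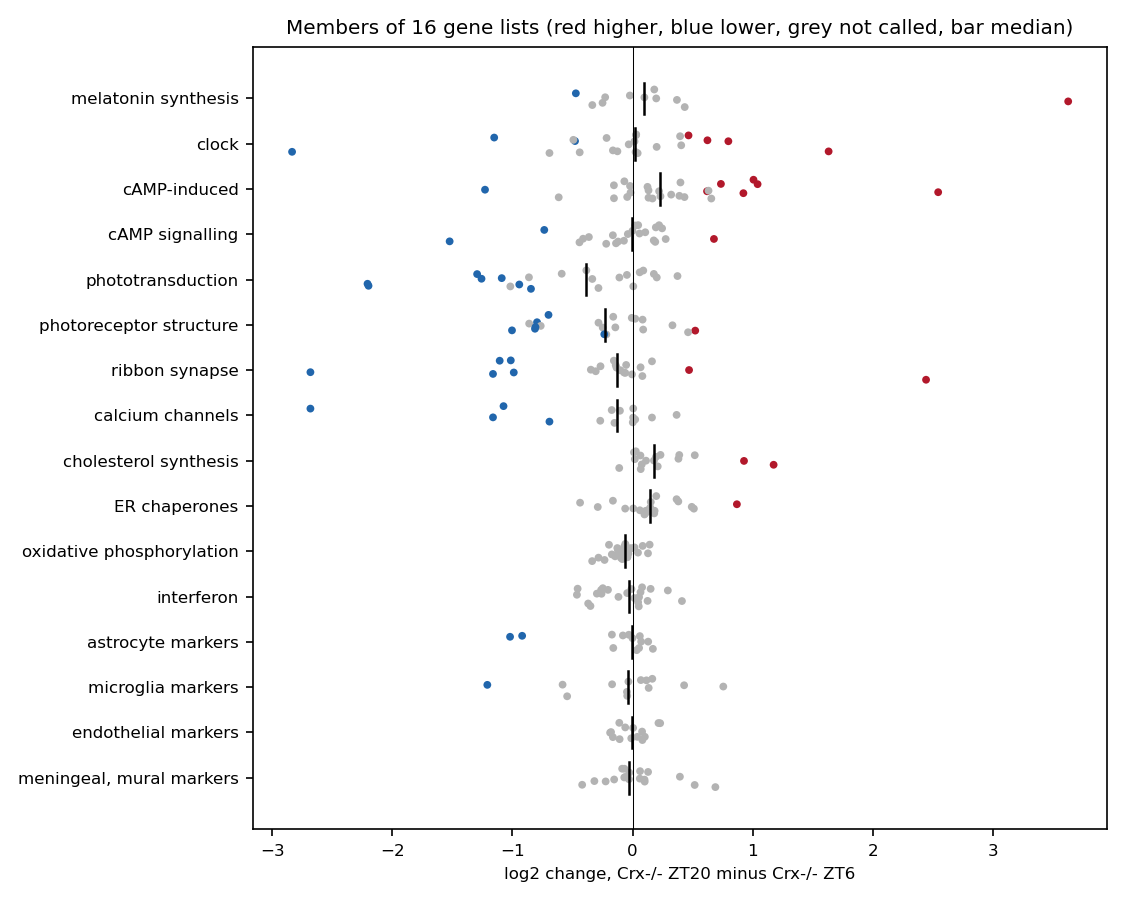
Log2 change, Crx-/- ZT20 minus Crx-/- ZT6, of each tested member of 16 gene lists; red points were called higher, blue points lower, grey points not called, and black bars are list medians. Phototransduction holds 7 lower and 0 higher members (median -0.39), the cyclic AMP-induced list 6 higher and 1 lower (median 0.23).

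Markers of other cell types gave few calls in short lists. The share called was 18.2% for brain neuron and 15.4% for astrocyte markers. It was 8.33% for choroid plexus and ependymal and 7.69% for microglial markers, against 3.32% of all genes. Fewer cells of a type cannot be told apart from less RNA per cell in such tissue samples. Limma called 0 of 14 endothelial, 0 of 18 meningeal and mural, and 0 of 4 oligodendrocyte genes, where 0, 4 and 1 had an unadjusted p under 0.05. Of 13 astrocyte markers the glutamate transporter Slc1a2 (9.88 to 10.03 at ZT20, 10.60 to 11.44 at ZT6) and the fatty acid carrier Fabp7 (10.29, 10.28 and 10.70 at ZT20, 11.41, 11.33 and 11.28 at ZT6) fell, by 1.02 and 0.92 on the log2 scale, while Gfap, Aqp4 and Aldh1l1 changed by 0.13, 0.07 and -0.08. Of 13 microglial and macrophage markers the fractalkine receptor Cx3cr1 fell, with 6.24, 7.16 and 6.81 at ZT20 and 7.86, 8.05 and 7.92 at ZT6 (-1.21 ± 0.24, adjusted p = 0.0188), and Csf1r and Tmem119 changed by -0.03 and 0.16. Of 12 choroid plexus and ependymal markers the water channel Aqp1 fell (-0.67 ± 0.15), while Kl changed by -0.06. With an array left out Fabp7 stayed called in all 6 fits, Slc1a2 in 5, Cx3cr1 in 4 and Aqp1 in 1. Of 11 brain neuron markers Slc17a6 rose (0.35 ± 0.06) and Slc17a7 fell. The summed signal of the astrocyte list was 36025.6 to 37652.2 at ZT20 and 36871.6 to 41711.7 at ZT6, and that of the microglial list 24443 to 27546.6 at ZT20 and 24317.5 to 26308.8 at ZT6. The summed signal of the meningeal and mural list was 72364.8 to 76366.3 at ZT20 and 74009.3 to 77346.5 at ZT6, and that of the endothelial list 21892.9 to 25641.6 at ZT20 and 21500.4 to 26850.5 at ZT6.

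Whether the day to night change depended on genotype was asked through the interaction, the change in Crx-/- glands minus that in control glands. With all 12 arrays it was called for 29 genes (0.234%), 14 positive and 15 negative. Without the array labelled control ZT20 replicate 3 it was called for 763 (6.16%), 282 positive and 481 negative, all 29 among them. Leaving out any other array gave 0 to 16 calls, so the count for 12 arrays rested on nearly every array. In control glands 2000 genes (16.2%) were called between the times in the 12-array fit, and 3108 (25.1%) in the 11-array fit without that array. The 12-array fit gave 86 higher and 108 lower genes in Crx-/- glands, and the 11-array fit 318 and 436. The 411 come from the 6 Crx-/- arrays alone. Of the 411 genes called in Crx-/- glands, 6 were among the 29 and 98 among the 763. The change in control glands had the same sign for 181 of the 201 genes that rose and 161 of the 210 that fell (184 and 169 without that array). The share of all tested genes with the same sign in both genotypes was not computed, so these counts have no baseline.

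Aanat rose at ZT20 in both genotypes, and the difference between the rises did not pass. Its change was 3.63 in Crx-/- and 3.11 in control glands, a difference of 0.51 ± 0.59 (limma, adjusted p = 0.760), and without the array that stood apart the difference was -0.05 ± 0.40. The log2 signal at ZT20 was 9.52, 9.16 and 9.40 in Crx-/- glands, against 11.34, 11.05 and 9.52 in control glands. For Cry1 the difference was 0.27 ± 0.19, and 0.14 ± 0.16 without that array, and neither passed.

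Lrit1, Rprm and Cngb3 were called in Crx-/- glands and in the interaction with 12 arrays. Lrit1 was high at both times in control glands, with 12.18, 12.20 and 10.68 at ZT20 and 11.86, 11.68 and 11.89 at ZT6, and the difference in its change was 2.57 ± 0.45 (limma, adjusted p = 0.0491; 2.06 ± 0.19 and adjusted p = 0.000137 without control ZT20 replicate 3). Rprm, high in Crx-/- glands by day, was lower in controls, with 4.93, 4.48 and 5.27 at ZT20 and 4.51, 3.38 and 4.32 at ZT6 (-3.13 ± 0.53, adjusted p = 0.0491; -2.94 ± 0.52 without control ZT20 replicate 3). It was above background on 2 of the 3 control ZT6 arrays, and with the background in place of the lower signal the difference was -2.89. Cngb3 had 9.56, 9.46 and 9.39 at ZT20 and 9.86, 9.80 and 9.50 at ZT6 in controls, a change of -0.25 that did not pass (adjusted p = 0.186), and the difference was -1.04 ± 0.18 (adjusted p = 0.0491; -1.08 ± 0.18 without that array). The clock gene Nr1d1 fell in controls too (change -1.86, limma, adjusted p = 0.000134), while the control change of Dbp, -0.21, did not pass (adjusted p = 0.393). The ZT6 signals of both were higher in Crx-/- glands than in controls. Without control ZT20 replicate 3 the differences in change were -0.99 ± 0.26 for Nr1d1 (adjusted p = 0.0425) and -1.06 ± 0.20 for Dbp (adjusted p = 0.00983). With that array they did not pass (adjusted p = 0.128 and 0.0984). Per1 rose in controls (adjusted p = 0.00353; 8.74, 8.76 and 8.28 at ZT20, 7.45, 7.65 and 7.65 at ZT6) and did not pass in Crx-/- glands, with a difference of -1.13 ± 0.23 (adjusted p = 0.0126) without that array and of -0.98 ± 0.26 (adjusted p = 0.126) with it. Gngt1 differed by -1.40 ± 0.16 (adjusted p = 0.000493) without the array and by -0.46 ± 0.77 with it.

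Sphk2, a sphingosine kinase, fell by 1.79 on the log2 scale in Crx-/- glands (adjusted p = 3.77e-05), with 9.54, 9.63 and 9.58 at ZT20 and 11.57, 11.37 and 11.17 at ZT6, and differed from controls by -1.61 ± 0.19 (limma, adjusted p = 0.0203), or -1.74 ± 0.16 without control ZT20 replicate 3. Its other kept probe set changed by 0.21 in Crx-/- and -0.20 in control glands. The gene overlaps Dbp by 741 bases on chromosome 7 in the RefSeq annotation of GRCm38.p6, and whether Dbp transcripts reach the probe set that fell was not tested.

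Dio2 and Cckbr rose at ZT20 in controls and did not pass in Crx-/- glands. Dio2 had 9.59, 9.77 and 8.78 at ZT20 and 6.52, 7.12 and 7.33 at ZT6 in controls, a change of 2.39 (limma, adjusted p = 0.000441). The difference in change was -2.16 ± 0.42 with all arrays (limma, adjusted p = 0.0570) and -2.46 ± 0.35 (adjusted p = 0.00167) without control ZT20 replicate 3. Cckbr, a receptor of cholecystokinin and gastrin, had 7.98, 7.77 and 7.95 at ZT20 and 7.97, 7.95 and 8.09 at ZT6 in Crx-/- glands, against 7.36, 7.62 and 8.03 at ZT20 and 2.01, 4.74 and 2.11 at ZT6 in controls (difference -4.82 ± 0.78, adjusted p = 0.0485; -4.64 ± 0.79 without control ZT20 replicate 3). Only 1 of the 3 control ZT6 arrays was above background for Cckbr, so the size of its control rise is not measured, and with the background in place of the lower signals the difference was -3.39, or -3.21 without that array. In both genes the Crx-/- day level lay near the night level, and above the control day level. The transcription factor Etv5 (-1.57 ± 0.28), the peptidase Cpz (-1.99 ± 0.28) and the collagen Col5a2 (-1.46 ± 0.26) were among the other negative differences, and were -1.84, -2.14 and -1.41 in the same order without that array. Tox (1.38 ± 0.24), Samsn1 (1.49 ± 0.24) and Fam122b (1.60 ± 0.29) were among the positive ones, at 1.36, 1.48 and 1.39 without it.

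**Figure D5:**
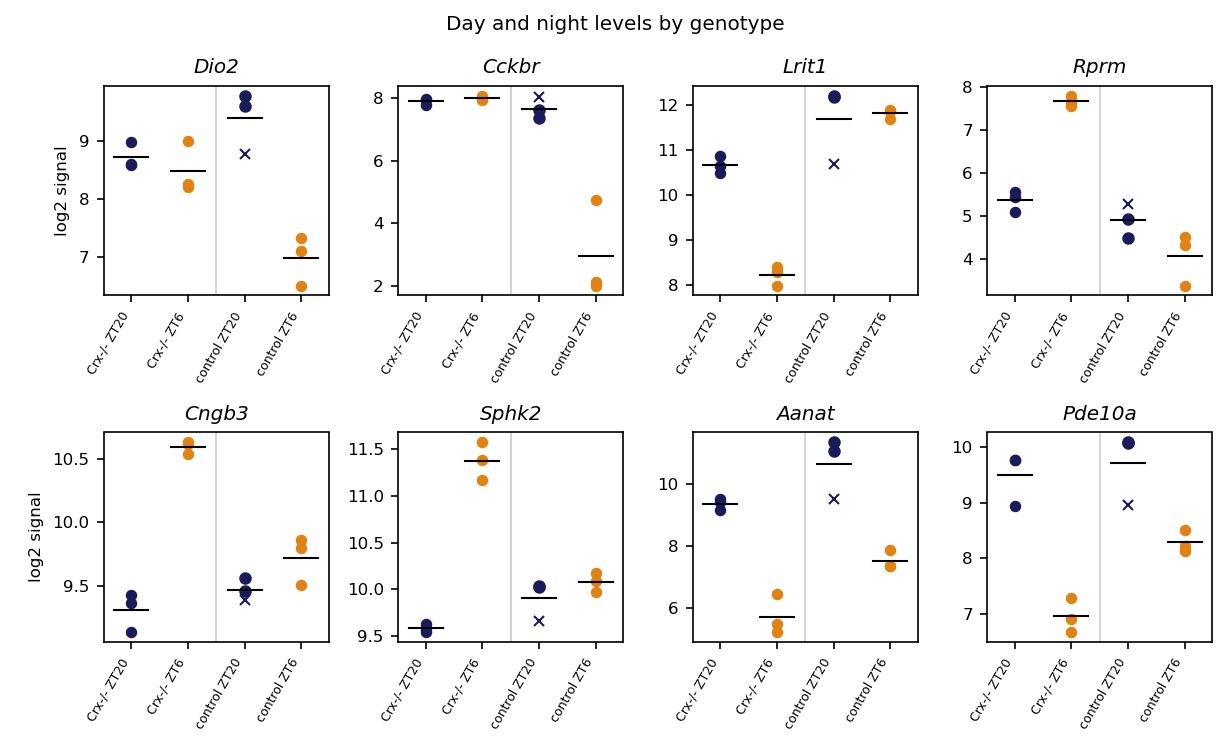
Log2 signal of 8 genes on each array, by group; horizontal bars are group means of 3 arrays, and the cross is the array labelled control ZT20 replicate 3. Dio2 and Cckbr rise at ZT20 in control glands and overlap between times in Crx-/- glands, while Lrit1 rises at ZT20 in Crx-/- glands and is high at both times in controls.

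The Dio2 promoter is shown because the gene rose in controls and did not pass in Crx-/- glands. In its RefSeq window at chr12:90738989-90739288 of GRCm38.p6, on the minus strand, the CRE core is found on both strands, overlapping as the palindrome TGACGTCA, at -95 and -92 from the start of transcription. Capitals mark it.
Dio2: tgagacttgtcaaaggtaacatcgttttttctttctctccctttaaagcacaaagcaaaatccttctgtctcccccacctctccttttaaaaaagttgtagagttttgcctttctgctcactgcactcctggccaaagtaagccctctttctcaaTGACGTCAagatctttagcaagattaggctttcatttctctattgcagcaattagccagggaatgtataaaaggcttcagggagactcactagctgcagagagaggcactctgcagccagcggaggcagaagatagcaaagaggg
No other of the 5 motifs was found in this window.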

How the data were processed

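Pineal gland RNA was measured in 12 samples on 1-colour arrays, 3 per group. Per the labels, the authors computed GCOS signals, and the deposited intensity values were not scaled between arrays; the GCOS version is not given in the sources used here. The 12 arrays were quantile normalised over 45101 probe sets, the 64 control features were dropped, and log2(signal + 3.4) was taken, 3.4 being the 10th percentile of the signals. Gene symbols came from the platform annotation: 34945 probe sets had 1 symbol, 932 several and 9160 none, and 34741 matched RefSeq. Probe sets with 1 symbol were kept when at least 3 arrays reached the median of their array (21076), and the brightest of each gene was used (12379 genes, 5272 of them with several). Changes were tested with limma 3.58.1 in R 4.3.3 (lmFit, eBayes with a trend, two-sided, Benjamini-Hochberg). The 6 Crx-/- arrays were used for the Crx-/- change, and 12 or 11 arrays for the interaction and the control change. The scripts were tested on simulated data.

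No 2 arrays held identical values. The labels do not say whether replicates share a litter or day, so p-values measure the spread between these samples. The number of arrays limits the precision. The named genes were, among called genes without overlap, the 12 with the strongest rise and the 12 with the strongest fall. To these were added up to 4 called members of each gene list and a set of clock, melatonin and cyclic AMP genes. The 6 largest interactions in each direction, with and without control ZT20 replicate 3, were also selected. Not all of those selected without that array are described above: E2f8, Cpm, Evi2a and Tnmd, for example, are not. Other genes of the lists were named to show their range. Members and lists were chosen with earlier results of these data known. Deviations of Crx-/- arrays with the same replicate number correlated at 0.09, 0.057 and 0.173, and those with different numbers at -0.137 to 0.051. The same-number values were all above the others. The arrays were not paired in the main fit, and whether the numbers pair them was not tested. Alternatives changed the scaling, pseudocount, filter, probe set rule, variance model and arrays. The authors' lists of regulated genes were not used here.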

Additional observations from a re-analysis of the deposited data

Results flagged for a closer look

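Of the 29 genes called by the interaction test with 12 arrays, the 13 that are among the named genes are given (limma, adjusted p of 0.0203 to 0.0496). The value is the Crx-/- change minus the control change on the log2 scale. The change was lower in Crx-/- glands for Cckbr (-4.82, and -3.39 with signals below background raised to it), Rprm (-3.13, and -2.89 likewise), Cpz (-1.99), Sphk2 (-1.61), Etv5 (-1.57), Col5a2 (-1.46) and Cngb3 (-1.04). It was higher for Lrit1 (2.57), Fam122b (1.60), 4930526L06Rik (1.59), Samsn1 (1.49), 0610009L18Rik (1.39) and Tox (1.38). In control ZT6 glands Cckbr was above background on 1 of 3 arrays and Rprm on 2. Without control ZT20 replicate 3 each of the 13 kept its sign, with an adjusted p of 0.000137 for Lrit1 and 0.00753 for Col5a2.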

How the results depend on the processing

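The 201 higher and 210 lower genes became 109 and 174 with no scaling between arrays, where the share of higher calls was 38.5% instead of 48.9% and the median change of all genes -0.135. They became 86 and 108 when all 12 arrays shared the spread, 318 and 436 when 11 did, 130 and 167 with no trend in the variance, and 98 to 188 and 106 to 184 when 1 Crx-/- array was left out. Every one of the 411 kept its direction with no scaling between arrays. The other fits could not turn it. Those that changed the variance left the group means as they were, and the ZT20 and ZT6 arrays of these genes do not overlap. The replicate block gave 280 higher and 300 lower, with 410 of the 411 among them. The 29 interaction calls became 4 with no scaling, 5 with a pseudocount of 1, 1 with no filter, 56 with averaged probe sets, 0 with the replicate block and 0 to 763 with 1 array left out. Without control ZT20 replicate 3 the 763 became 245 with no scaling and 225 to 937 with another array left out. The 2000 genes called in controls became 535 with no scaling and 977 to 3108 with 1 array left out. The causes were not tested.

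Some changes turned sign, most of them near 0. Exceptions were Kif26b, at 0.71 ± 0.50 with all arrays, and the Aanat interaction, at 0.51 ± 0.59. Kif26b turned only without Crx-/- ZT20 replicate 1. Scaling to a trimmed mean gave 0.0361 for Tph1 and -0.0117 for Fam122b, no scaling gave -0.0605 for Per1 and -0.108 for Fam122b, and averaged probe sets gave 0.0848 for Etv5. With 1 array left out the changes spanned -0.0995 to 0.0800 for Cry2, -0.266 to 0.110 for Fos, -0.103 to 0.142 for Fam122b, -0.0341 to 0.242 for Tox, -0.516 to 0.0752 for St8sia2, -0.0937 to 0.0112 for Otx2, -0.0953 to 0.186 for Per1, -0.0820 to 0.0872 for Etv5 and -0.00273 to 1.21 for Kif26b. The Aanat interaction spanned -0.0455, without control ZT20 replicate 3, to 0.877. Genes not above background at 1 time have only a bound there.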

Other observations

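Further genes outside the lists were chosen after their values were seen, and are given as values. Crxos, which lies opposite Crx, had log2 signals of 10.83, 9.89 and 9.99 at ZT20 and of 9.30, 9.02 and 8.94 at ZT6 in Crx-/- glands (1.15 ± 0.22, limma, adjusted p = 0.0167). The neuropeptide galanin (Gal) rose by 1.84 ± 0.27 (adjusted p = 0.00351), the peptide precursor Cartpt by 0.81 ± 0.14 and the neuropeptide FF receptor Npffr2 by 1.90 ± 0.31. The neuronal amino acid transporter Slc6a17 rose by 1.86 ± 0.20 (adjusted p = 0.000447), the kinase Dclk1 by 1.79 ± 0.16 and the receptor tyrosine kinase Ret by 1.52 ± 0.21. Among genes of immune cells, Il1b rose by 1.51 ± 0.25 (adjusted p = 0.00694) and the macrophage elastase Mmp12 by 1.85 ± 0.29 (adjusted p = 0.00517). Kcnip2, a subunit of A-type potassium channels, changed by -1.77 ± 0.21 (adjusted p = 0.000801) and Faah, which degrades the endocannabinoid anandamide, by -1.79 ± 0.29 (adjusted p = 0.00544).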
